A study of Papio anubis with 34 samples.

Results

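Bulk RNA sequencing libraries of prefrontal cortex from olive baboons (Papio anubis) were ranked by 4 genes that fibroblasts transcribe, and the 8 libraries with the highest level (fibroblast-rich) were compared with the 8 with the lowest (fibroblast-poor), 16 of 34 libraries in all. For each library the counts of a gene's transcripts were summed and divided by the library total to give counts per 1000000 (CPM), and the score was the mean of log2(CPM + 1) over COL1A1, COL1A2, COL3A1 and LUM. The groups were therefore chosen by measured values. The 4 genes are given as a description, and all tests are on other genes. Every animal was female, ate a monkey chow diet without restriction and received no treatment, per the labels, and each gave 1 library. Age was the only labelled difference: the fibroblast-rich animals were 8.88, 8.73, 11.1, 17.86, 18.61, 20.83, 8.64 and 10.18 years old (rich 1 to rich 8, by falling score) and the fibroblast-poor animals 10.93, 9.42, 13.16, 15.68, 18.48, 22.12, 11.95 and 19.81 years (poor 1 to poor 8, by falling score). Another 17 libraries lay between the groups and are called middle libraries. The last library, from an animal of 10.99 years, was left out of the ranking. It held 58750 CPM of the liver gene ALB and 7.37 CPM of the neuronal gene SNAP25, against at most 19.0 CPM of ALB and 1809 to 3038 CPM of SNAP25 in the other 33 libraries.

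Fibroblasts of the brain lie in the meninges, the membranes around the cortex, and along the larger vessels that dive into it. They secrete the collagens and proteoglycans of these membranes, and those of the arachnoid and pia also carry solute transporters and junction proteins and supply retinoic acid, insulin-like growth factors and bone morphogenetic proteins. COL1A1 and COL1A2 encode the chains of type I collagen, COL3A1 encodes type III collagen, and LUM encodes lumican, a small proteoglycan that binds collagen fibrils. A piece of frozen cortex can carry more or less of its pia and vessels. In bulk tissue, more fibroblasts in the piece and more RNA per fibroblast cannot be told apart.

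The score fell from 6.01 in rich 1 and 5.81 in rich 2 through 4.68, 4.11, 3.67, 3.61, 3.50 and 3.35 in rich 3 to rich 8. In the fibroblast-poor libraries it was 1.80, 1.80, 1.74, 1.68, 1.6, 1.53, 1.44 and 0.706. Rich 1 and rich 2 stood apart from the other 6 fibroblast-rich libraries. The last library inside the fibroblast-rich group had a score of 3.35 and the next one outside it 3.31, and at the lower edge the values were 1.80 inside and 1.87 outside, so both edges fell within a continuous range. COL1A1 lay between 4.86 and 37.1 CPM in the fibroblast-rich libraries and between 0.444 and 1.04 CPM in the fibroblast-poor ones. COL1A2 lay between 20.4 and 130 CPM against 0.474 to 3.88 CPM. COL3A1 lay between 6.36 and 69.2 CPM against 0.853 to 3.40 CPM. LUM lay between 7.10 and 47.8 CPM against 0.758 to 7.62 CPM, the only one of the 4 genes whose groups overlapped, through poor 1. Leaving COL1A1 or COL1A2 out of the score exchanged 1 library in each group, leaving out LUM exchanged 1 fibroblast-poor library, and leaving out COL3A1 exchanged none.

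**Figure D1:**
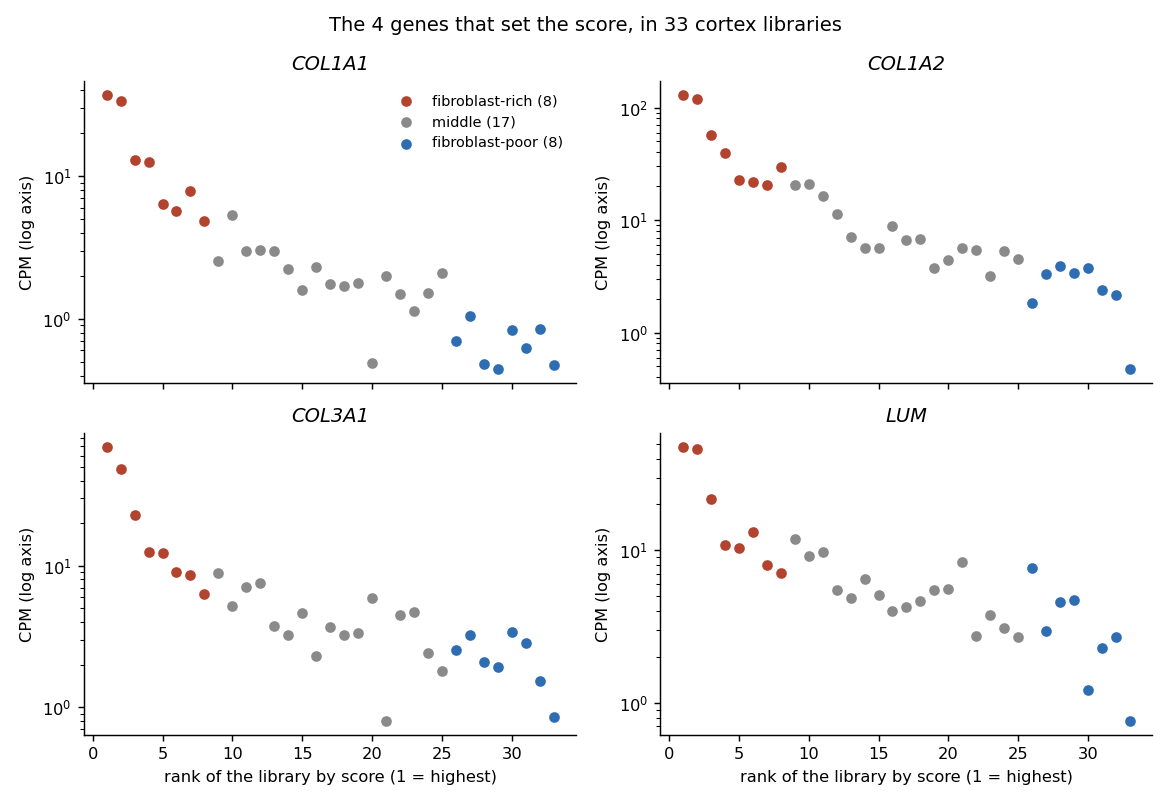
CPM of COL1A1, COL1A2, COL3A1 and LUM (log axis) against the rank of each of 33 libraries by the score, with 1 point per library, coloured by group. The decline is continuous over the ranks, and the 8 fibroblast-rich libraries hold 20.4 to 130 CPM of COL1A2 against 0.474 to 3.88 CPM in the 8 fibroblast-poor ones.

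Library totals were 2674183 to 28495030 estimated counts in the fibroblast-rich group (median 6867407) and 4328064 to 17722043 in the fibroblast-poor group (median 11018395). Mean log2 totals differed by -0.66 (exact permutation test, two-sided, p = 0.172) and mean ages by -2.09 years (exact permutation test, two-sided, p = 0.392). The titles of some libraries carry a suffix R, which the labels do not explain. It marked rich 5 and 4 fibroblast-poor libraries (poor 2, 5, 7 and 8; Fisher's exact test, two-sided, p = 0.282) and 0 middle libraries. All 3 adjusted p-values were 0.392 after Benjamini-Hochberg adjustment. Myelin moved with the groups. The mean log2 CPM of 24 myelin genes was 3.47 to 5.87 in the fibroblast-rich libraries (median 5.16) and 4.79 to 7.91 in the fibroblast-poor ones (median 5.95), with rich 2 and rich 3 below every other library.

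**Figure D2:**
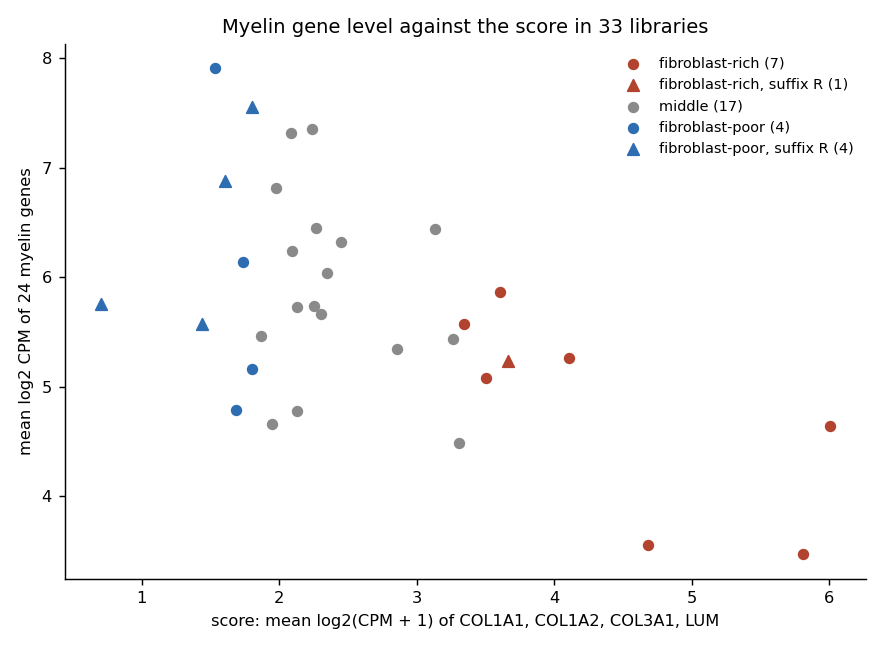
Mean log2 CPM of 24 myelin genes against the fibroblast score, with 1 point per library (8 fibroblast-rich, 17 middle, 8 fibroblast-poor) and triangles for titles with the suffix R. Fibroblast-rich libraries lie between 3.47 and 5.87 and fibroblast-poor ones between 4.79 and 7.91.

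Of 16432 genes tested, 125 (0.761%) were higher and 35 (0.213%) lower in the fibroblast-rich libraries at an adjusted p under 0.05 (edgeR's quasi-likelihood F test, Benjamini-Hochberg adjustment over all genes tested). The higher genes differed by 0.54 to 5.97 on the log2 scale, with a median of 1.61, and the lower genes by -2.98 to -0.46, with a median of -1.08. The median over all genes tested was -0.0018. Without adjustment 6.5% of the genes were higher and 7.18% lower at a p under 0.05. In 48 genes (0.292% of those tested) every fibroblast-rich library lay above every fibroblast-poor one, and all 48 were among the 125. In 5 genes (0.0304%) every one lay below, 4 of them among the 35. Of the 125 higher genes 6 (SLC22A8, SLC22A2, CPXM1, C7, IGF2 and MGP) reached the level of the filter on low counts, 1.10 CPM, in no fibroblast-poor library. They could enter the test only by being higher, so their calls are a description. In the fit without a filter the adjusted p of these 6 lay between 3.938e-06 and 0.00435. Of the 125 higher genes 81 reached the filter level in all 8 fibroblast-poor libraries, against 14440 of the 16432 genes tested. SLC6A20 and SLC22A6, for example, reached it only in the highest fibroblast-poor library. The entry of such genes into the test therefore also rested on the fibroblast-rich libraries. Single libraries changed these counts: 74 genes were higher and 7 lower without rich 1, 77 and 8 without rich 2, 61 and 2 without both, and 234 and 240 without poor 4. With the suffix R as a covariate 69 genes were higher and 4 lower. Without the 5 suffix R libraries (7 against 4 left) edgeR called 0 genes in either direction, with 620 higher and 744 lower at an unadjusted p under 0.05. There limma-voom also called 0, whereas DESeq2 called 115 higher and 23 lower. In that fit 124 of 124 higher genes and 35 of 35 lower genes kept their sign. The libraries left are part of those that chose these genes, so the kept signs are no separate support.

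Genes of meningeal solute transport led the ranking by p. SLC6A20, a transporter of proline and related amino acids (GeneID 101011367), stood at 3.04, 15.8 and 41.2 CPM in the lowest, median and highest fibroblast-rich library and at 0, 0.216 and 1.19 CPM in the fibroblast-poor ones. It rose by 5.97 ± 0.58 (log2, SE, n = 8 against 8; adjusted p = 2.9e-05), and the groups did not overlap. SLC13A4, a sulfate transporter (GeneID 101000586), stood at 6.08, 34.4 and 100.3 CPM against 0.469, 0.732 and 2.86 CPM, a difference of 5.20 ± 0.53 (adjusted p = 2.9e-05), again without overlap. The unnamed gene LOC103883270, annotated as resembling SLC13A4 and chosen after its values were seen, rose by 4.08 ± 0.49. Reads of these 2 genes may be shared, so the split between them is uncertain.

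The organic anion transporters SLC22A6 and SLC22A8 and the organic cation transporter SLC22A2 were higher. SLC22A6 (GeneID 101001244) stood at 3.42, 15.7 and 47.9 CPM against 0.0892, 0.488 and 1.28 CPM (4.76 ± 0.52, adjusted p = 6.4e-05). SLC22A8 (GeneID 101000214) stood at 1.87, 3.67 and 13 CPM in the fibroblast-rich libraries and was at 0 in 5 of 8 fibroblast-poor ones, which held 6 counts in all. Its fitted difference of 5.91 ± 0.60 rests on those few counts. SLC22A2 (GeneID 101004885) stood at 1.90, 4.95 and 21.2 CPM against 0, 0.188 and 0.515 CPM (5.17 ± 0.67). None of the 3 had overlapping groups, and SLC22A8 and SLC22A2 are among the 6 genes that the filter passed only through the fibroblast-rich libraries.

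DSP, which encodes desmoplakin, the protein that anchors keratins at desmosomes (GeneID 101009732), stood at 5.70, 31.7 and 108 CPM against 0.375, 2.12 and 4.06 CPM (4.21 ± 0.53, adjusted p = 0.00023). It was the only tested junction gene of its list that passed. The others, named after their values were seen, were CLDN11 (-1.36), CLDN1 (-0.97), JUP (-0.56), CDH3 (0.19), PKP2 (1.02) and CDH1 (1.07). CRABP2, a carrier of retinoic acid inside the cell, rose by 3.11 ± 0.42 and the ATP-driven transporter ABCA9 by 2.22 ± 0.32, both without overlap. The monocarboxylate transporter SLC16A12 (1.93 ± 0.42), the prostaglandin D2 synthase PTGDS (1.24 ± 0.28) and the sulfate transporter SLC26A2 (1.08 ± 0.25) also passed, but only 4, 4 and 7 of 8 fibroblast-rich libraries lay above every fibroblast-poor one, and they lost the call in 7, 10 and 11 of 16 fits that left out 1 library. Without rich 1 and rich 2 SLC16A12, PTGDS and SLC26A2 differed by 1.22, 0.89 and 0.96, and none of them passed. These 3 genes were named after their values were seen. SLC6A13, a transporter of gamma-aminobutyric acid and taurine, had 4.89, 12.4 and 32.7 CPM against 5.02, 5.91 and 7.92 CPM and did not pass (1.21 ± 0.29, adjusted p = 0.053). Of 28 tested members of the transport and barrier list, 10 rose (SLC22A8 included) and 0 fell, with a median of 0.99 against -0.0018 over all genes. Over all genes tested 0.761% rose and 0.213% fell, the shares that belong beside this and every later list count. SLC22A2 is not a member of that list.

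**Figure D3:**
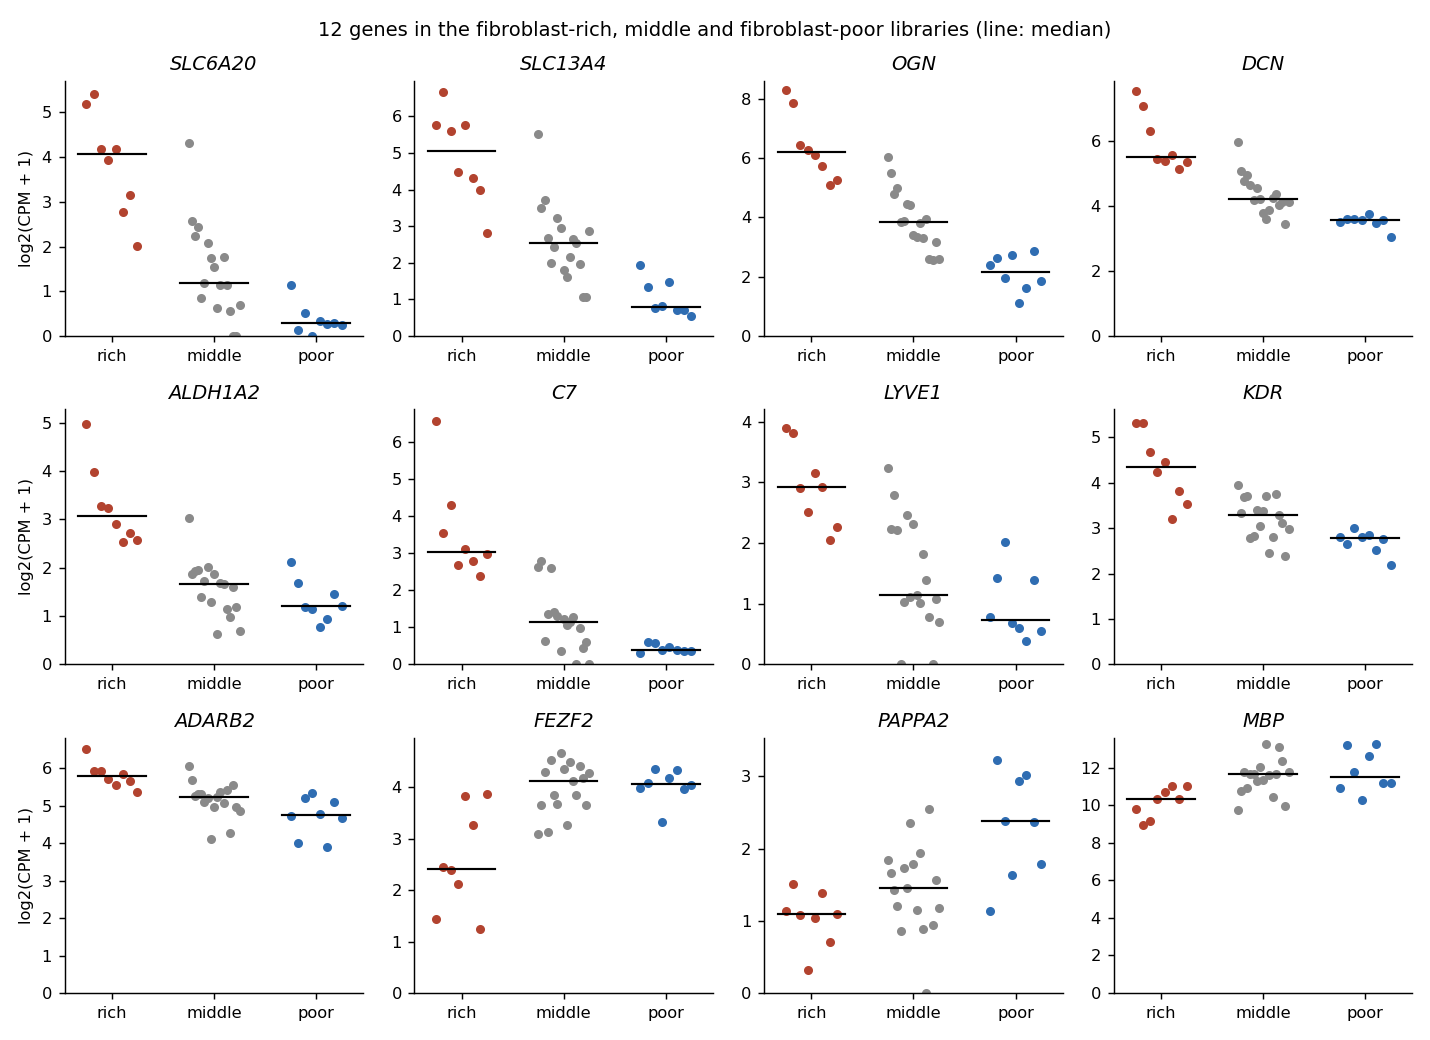
Values of log2(CPM + 1) for 12 genes in the 8 fibroblast-rich, 17 middle and 8 fibroblast-poor libraries, each group in order of falling score, with 1 point per library and a line at the median. For SLC6A20, SLC13A4, OGN, DCN, ALDH1A2, C7, LYVE1, KDR and ADARB2 all 8 fibroblast-rich points lie above all 8 fibroblast-poor points, and for FEZF2, PAPPA2 and MBP the groups overlap.

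Small leucine-rich proteoglycans, the family of lumican, bind collagen fibrils and set their spacing. OGN, osteoglycin (GeneID 101002663), stood at 33.5, 73.0 and 316 CPM against 1.16, 3.58 and 6.38 CPM (4.94 ± 0.52, adjusted p = 4.3e-05). DCN, decorin (GeneID 101018003), stood at 34.5, 44 and 185 CPM against 7.22, 10.9 and 12.5 CPM (2.85 ± 0.34, adjusted p = 0.00018). OMD, osteomodulin (GeneID 101003013), stood at 3.43, 11.1 and 30.6 CPM against 0, 0.882 and 1.52 CPM (3.94 ± 0.49, adjusted p = 0.00023). The groups overlapped in none of these 3. Fibromodulin, FMOD, rose by 1.5 ± 0.34 and ECM2 by 1.28 ± 0.30, with 6 and 4 of 8 fibroblast-rich libraries above all fibroblast-poor ones. These 2 genes lost the call in 8 and 11 of 16 fits that left out 1 library. Without rich 1 and rich 2 FMOD differed by 1.01 and ECM2 by 0.85, and neither passed. Biglycan, BGN, differed by 0.44 ± 0.39 and did not pass (adjusted p = 0.712). Of 9 tested members 5 rose and 0 fell, with a median of 1.28.

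Among collagens other than the score genes 2 of 23 tested rose and 0 fell, with a median of 0.40. Of all genes tested 0.761% rose. COL6A1, a chain of the beaded-filament type VI collagen, stood at 4.89, 13.4 and 38.1 CPM against 2.40, 3.94 and 7.53 CPM (2.00 ± 0.37, adjusted p = 0.0092). COL12A1, which decorates fibril surfaces, stood at 29.5, 74.1 and 222 CPM against 14.7, 29.7 and 41.2 CPM (1.74 ± 0.35, adjusted p = 0.020). In both genes 6 of 8 fibroblast-rich libraries lay above every fibroblast-poor one. COL12A1 was highest in rich 4 (221.6 CPM) and rich 7 (171.4 CPM), not in the libraries of highest score. COL14A1, RSPO2 and the neuronal gene SLC17A6 were also highest in rich 4 and rich 7. The cause of this shared pattern was not tested. COL18A1 (1.43 ± 0.39), COL14A1 (1.08 ± 0.30), COL6A2 (0.89 ± 0.29), COL5A1 (0.43 ± 0.24) and COL5A2 (0.28 ± 0.27) did not pass, with adjusted p between 0.077 and 0.749. Among 20 tested genes of collagen processing only PCOLCE, an enhancer of procollagen cleavage, passed, at 2.66, 5.74 and 17 CPM against 0.226, 0.549 and 1.54 CPM (3.43 ± 0.46). The prolyl hydroxylase subunits P4HA1 and P4HA2 differed by -0.18 ± 0.16 and -0.23 ± 0.19 and did not pass.

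Of 40 tested matrix glycoproteins 8 rose (MGP, one of the 6 that the filter passed only through the fibroblast-rich libraries, included) and 0 fell, with a median of 0.37. MFAP4, a protein of elastic microfibrils, stood at 6.08, 23.1 and 56.8 CPM against 0.451, 2.71 and 3.54 CPM (3.41 ± 0.45, adjusted p = 0.00037). ABI3BP rose by 3.03 ± 0.47, the calcification inhibitor MGP by 2.85 ± 0.48, elastin, ELN, by 2.87 ± 0.56 and the elastic fibre protein FBLN5 by 1.59 ± 0.31. Fibronectin, FN1, the laminin chain LAMA2 and the laminin chain LAMA4 rose by 1.21 ± 0.28, 1.10 ± 0.25 and 0.79 ± 0.18, with 5, 7 and 5 of 8 fibroblast-rich libraries above all fibroblast-poor ones. FN1, LAMA2 and LAMA4 lost the call in 9, 9 and 10 of 16 fits that left out 1 library, and without rich 1 and rich 2 FN1 differed by 0.63, LAMA2 by 0.63 and ELN by 1.85, none of them past the threshold. LAMA2 and LAMA4 were named after their values were seen. Fibrillin 1, FBN1, differed by 0.23 ± 0.20 and did not pass. In the matrix remodelling list 0 of 16 tested members rose and 1, the metalloproteinase PAPPA2, fell. The gelatinase MMP2 (1.68 ± 0.48), its activator MMP14 (0.95 ± 0.31) and the inhibitor TIMP1 (1.62 ± 0.39) had adjusted p of 0.0893, 0.132 and 0.0529.

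Other genes with the smallest p were APOD, CPXM1 and SERPIND1. APOD, a lipid-binding lipocalin (GeneID 101014954), stood at 33.1, 50.3 and 154 CPM against 9.75, 14.8 and 17.4 CPM (2.25 ± 0.28, adjusted p = 0.00022). CPXM1, a secreted protein of the carboxypeptidase family (GeneID 101025410), stood at 1.14, 3.14 and 10.03 CPM against 0, 0.136 and 0.477 CPM (4.74 ± 0.58), and is one of the 6 genes that the filter passed only through the fibroblast-rich libraries. SERPIND1, the thrombin inhibitor heparin cofactor II (GeneID 101007466), stood at 1.52, 14.4 and 45.7 CPM against 0.0892, 0.624 and 1.80 CPM (4.70 ± 0.60, adjusted p = 0.00027). The groups did not overlap in APOD and CPXM1, and in SERPIND1 only the lowest fibroblast-rich library fell within the fibroblast-poor range.

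Transcription factors and filaments of meningeal fibroblasts rose, while their receptors for platelet-derived growth factor did not pass. ZIC1, ZIC2 and ZIC4, zinc finger factors of the meninges, rose by 2.27 ± 0.35, 1.59 ± 0.30 and 1.86 ± 0.34, and FOXC1, a forkhead factor that meningeal development depends on, by 1.64 ± 0.29. ZIC1 stood at 9.89, 17.1 and 59.7 CPM against 4.21, 5.29 and 7.79 CPM. All 8 fibroblast-rich libraries were above all fibroblast-poor ones in these 4 genes. The T-box factor TBX18 rose by 2.20 ± 0.46, the homeobox factor EMX2 by 0.63 ± 0.12 and the intermediate filament gene VIM by 1.38 ± 0.27. TBX18 lost the call in 5 of 16 fits that left out 1 library, and differed by 1.28 without rich 1 and rich 2 (adjusted p = 0.135), where ZIC2 differed by 1.01. EMX2 and TBX18 were named after their values were seen. PDGFRA, which oligodendrocyte precursors also express, stood at 28.8, 43.1 and 85.3 CPM against 22.4, 29.1 and 61.3 CPM (0.37 ± 0.24, adjusted p = 0.563). PDGFRB, which pericytes also express, differed by 0.42 ± 0.19 (adjusted p = 0.332). Of 21 tested members of the fibroblast identity list 7 rose and 0 fell, and 13 of its 34 genes were under the filter on low counts.

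Members of 4 signalling pathways rose, and which cells transcribed them was not tested. ALDH1A2, the enzyme that makes retinoic acid in the meninges, stood at 4.80, 7.44 and 30.4 CPM against 0.708, 1.30 and 3.34 CPM (2.80 ± 0.42, adjusted p = 0.0012), without overlap. The related enzyme ALDH1A1 stood at 57.5, 70.1 and 98.9 CPM against 49.2, 65.4 and 84.0 CPM and did not pass (0.18 ± 0.12). Of 12 tested retinoid genes 2, ALDH1A2 and CRABP2, rose and 0 fell, with a median of 0.72. CRABP2 is also counted in the transport and barrier list. CYP1B1, another gene of this list, was not found by its symbol and is not in that count; LOC101014578, annotated as cytochrome P450 1B1 and named after its values were seen, rose by 2.83 ± 0.37. The growth factor IGF2 stood at 1.08, 2.21 and 12.2 CPM against 0, 0.321 and 0.966 CPM (3.26 ± 0.57). Its binding proteins IGFBP4 and IGFBP6 rose by 1.68 ± 0.27 and 1.24 ± 0.26, whereas IGF1 differed by 0.42 ± 0.21 and did not pass. Of 10 tested genes of this system 3 rose (IGF2, which the filter passed only through the fibroblast-rich libraries, included) and 0 fell, with a median of 1.13.

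BMP6, a bone morphogenetic protein, stood at 6.87, 10.9 and 36.5 CPM against 1.43, 2.88 and 4.51 CPM (2.48 ± 0.35, adjusted p = 0.00082), and TGFBR3, the co-receptor betaglycan, rose by 1.51 ± 0.28 and, without rich 1 and rich 2, by 0.99. The groups overlapped in neither. BMP4 (0.67 ± 0.33) and BMP2 (-0.13 ± 0.18) did not pass, and of 26 tested genes of the transforming growth factor beta system 2 rose and 0 fell, with a median of 0.28. Of 16 tested Wnt genes 3 rose and 0 fell, with a median of 0.63. The share that rose over all genes tested was 0.761%. Of the 3 Wnt genes, FRZB, a secreted Wnt antagonist, stood at 19.4, 24.7 and 50.1 CPM against 11.1, 13.2 and 18.2 CPM (1.10 ± 0.21). The antagonist SFRP4 rose by 2.27 ± 0.49 and the Wnt agonist RSPO2 by 1.55 ± 0.37. The highest values of RSPO2 were in rich 4 (93.9 CPM) and rich 7 (79.2 CPM), against 28.9 and 35.65 CPM in rich 1 and rich 2. The neuronal gene SLC17A6 was also highest in rich 4 and rich 7 (100.8 and 79.5 CPM). Among the fibroblast-poor libraries both genes were highest in poor 4 (39.65 and 37.85 CPM). RSPO2 lost the call in 13 and SFRP4 in 8 of 16 fits that left out 1 library. Without rich 1 and rich 2 SFRP4 differed by 1.2 (adjusted p = 0.145) and RSPO2 by 1.68 (adjusted p = 0.106), and neither passed. SFRP1, another antagonist, stood at 45.7, 58 and 98.0 CPM against 36.6, 82.3 and 437 CPM and did not pass (-0.97 ± 0.41).

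Of the list of other arachnoid and pial signals, 31 tested members with a median of 0.31, only the heparin-binding growth factor PTN rose, by 1.07 ± 0.22, and only the fibroblast growth factor FGF10 fell, by 1.37 ± 0.31 on the log2 scale. FGF10 stood at 2.17, 6.91 and 13.5 CPM against 9.91, 16.6 and 26.9 CPM, with 7 of 8 fibroblast-rich libraries below every fibroblast-poor one, but lost the call in 10 of 16 fits that left out 1 library.

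Some complement genes rose. C7, a component of the membrane attack complex, stood at 4.27, 7.27 and 94.3 CPM against 0.239, 0.305 and 0.535 CPM (5.70 ± 0.74), with the highest value in rich 1. It is one of the 6 genes that the filter passed only through the fibroblast-rich libraries. The alternative pathway protease CFB and the C1 inhibitor SERPING1 rose by 2.14 ± 0.36 and 1.36 ± 0.25. C3, the central component, differed by -0.95, C1R by 0.87, CFI by 0.41 and CLU by 0.13, and none of these 4 passed. They were named after their values were seen. The chemokine CXCL14 differed by 0.78 ± 0.24 and did not pass (adjusted p = 0.106). Of 14 tested genes of complement, chemokines and host defence 4 rose (C7 included) and 0 fell, with a median of 1.01.

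Macrophages of the brain's borders live in the same membranes, and vessels run through them. Of 8 tested border macrophage genes 3 rose and 0 fell, with a median of 1.48. The hyaluronan receptor LYVE1 stood at 3.12, 6.55 and 13.9 CPM against 0.310, 0.658 and 3.07 CPM (2.65 ± 0.44), and the scavenger receptors COLEC12 and STAB1 rose by 2.00 ± 0.29 and 1.98 ± 0.32. All 3 had groups without overlap. The mannose receptor MRC1 (1.32 ± 0.35, adjusted p = 0.0736) and CD163 (0.69 ± 0.31, adjusted p = 0.324) did not pass. SIGLEC1 (1.64), F13A1 (1.08) and MS4A7 (-0.59), named after their values were seen, did not pass either. Which cells transcribed the genes that rose was not tested. The summed level of the list was 41.5 to 178.7 CPM in the fibroblast-rich and 23.2 to 44.2 CPM in the fibroblast-poor libraries. Of 16 tested genes of microglia, the macrophages inside the tissue, 0 rose and 0 fell, with a median of -0.10. Their receptor genes P2RY12 and CX3CR1 differed by 0.02 ± 0.29 and -0.35 ± 0.28. The summed microglial level was 174.6 to 429.3 CPM against 172.8 to 549.7 CPM.

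Smooth muscle of arteries was higher in 3 of 13 tested genes and lower in 0, with a median of 0.54. The contractile genes ACTA2 and MYH11 stood at 3.88, 11.3 and 20.8 CPM against 1.07, 3.06 and 4.92 CPM (2.05 ± 0.36), and at 6.33, 15.2 and 29.7 CPM against 2.79, 4.75 and 10.1 CPM (1.69 ± 0.35). The tropomyosin gene TPM1 rose by 0.54 ± 0.12, and TAGLN (0.97 ± 0.25) did not pass. TPM1 lost the call in 11 and MYH11 in 4 of 16 fits that left out 1 library. The vascular endothelial growth factor receptor KDR was the only one of 25 tested endothelial genes that rose, at 8.22, 19.5 and 38.8 CPM against 3.56, 5.86 and 7.06 CPM (1.97 ± 0.29). The endothelial genes CLDN5 (0.45 ± 0.30) and PECAM1 (0.51 ± 0.20) did not pass, and 0 fell, where 0.761% of all genes tested rose. Of 9 tested pericyte genes only CD248 rose, by 1.58 ± 0.36, a call lost in 10 of 16 fits that left out 1 library, and the pericyte marker RGS5 differed by 0.19 ± 0.12. Hemoglobin did not pass: HBB stood at 4.89, 16.2 and 111.9 CPM against 2.06, 7.10 and 9.59 CPM (2.13 ± 0.52, adjusted p = 0.054), with the highest value in rich 1, and differed by 1.08 without rich 1 and rich 2. The part of vessels, macrophages and blood in the results for matrix and transport genes was not tested.

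**Figure D4:**
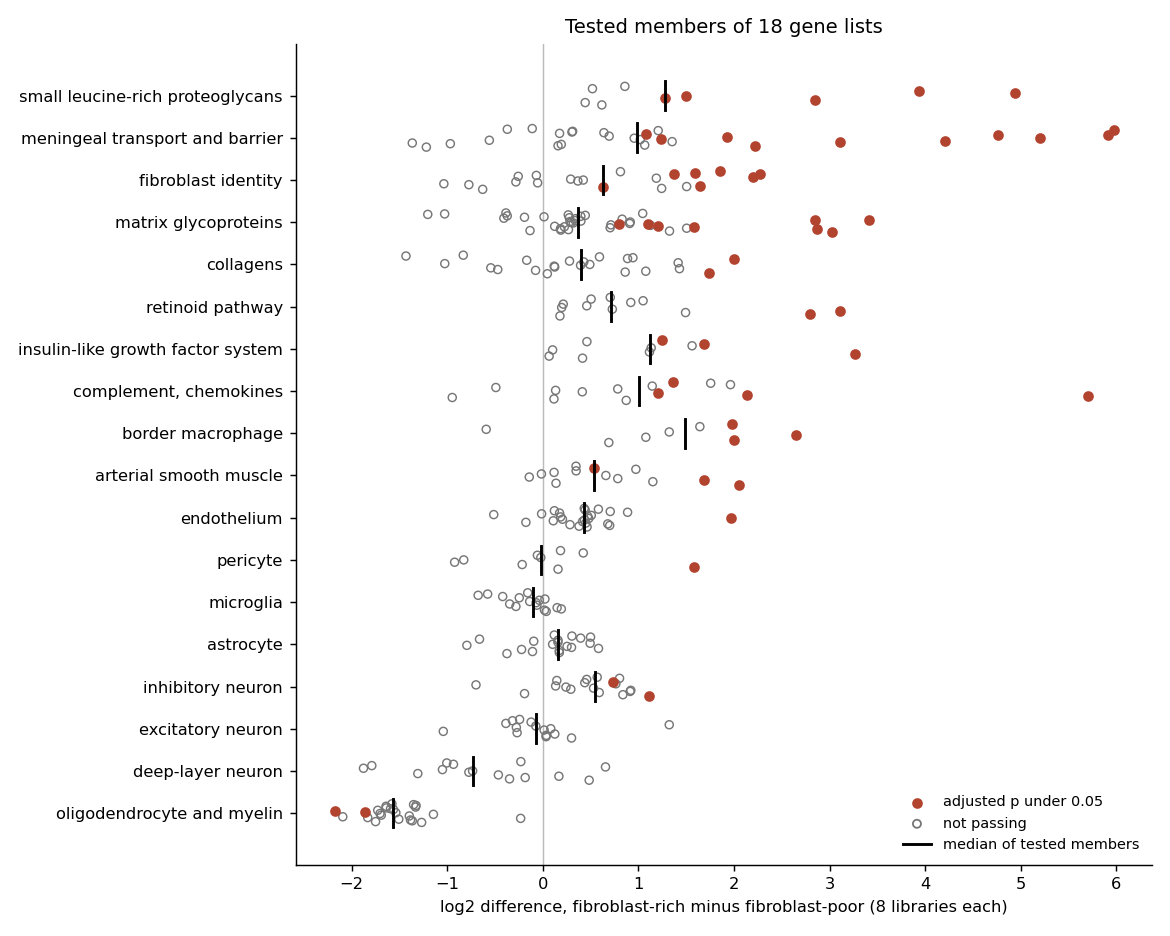
Log2 difference between 8 fibroblast-rich and 8 fibroblast-poor libraries for each tested member of 18 gene lists, with filled points at an adjusted p under 0.05 and a line at the list's median. The small leucine-rich proteoglycans have a median of 1.28 and 5 filled points, and the oligodendrocyte and myelin genes a median of -1.57 and 2 filled points.

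All 24 tested genes of oligodendrocytes and myelin had a lower fitted level in the fibroblast-rich libraries, 2 of them past the threshold, and the median was -1.57. MBP, myelin basic protein, stood at 499.1, 1295 and 2072 CPM against 1249, 2970 and 10040 CPM (-1.86 ± 0.42, adjusted p = 0.037), and MOBP at 40.5, 150.2 and 240.4 CPM against 118.1, 364.3 and 1758 CPM (-2.18 ± 0.50, adjusted p = 0.040). In both, 3 of 8 fibroblast-rich libraries lay below every fibroblast-poor one. At an unadjusted p under 0.05, 23 of the 24 were lower, against 7.18% of all genes tested. MBP and MOBP each lost the call in 11 of 16 fits that left out 1 library. With the mean level of the myelin genes as a covariate 11 genes were still called higher and 0 lower, among them SLC6A20 (4.72, adjusted p = 0.0014), SLC13A4 (4.22, adjusted p = 0.023), OGN (3.98, adjusted p = 0.024) and SLC22A6 (3.71, adjusted p = 0.024). DCN (2.34) and APOD (2.02) had adjusted p of 0.0874 and 0.0618 there. MGP (1.7), ELN (1.89), ZIC2 (1.002), TBX18 (1.17), IGFBP6 (0.66), MYH11 (1.09), TPM1 (0.28), ADARB2 (0.71) and PTN (0.62) moved by over 1.5 times under that covariate and did not pass.

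Of 18 tested genes of inhibitory neurons 2 rose and 0 fell, with a median of 0.55, where 0.761% of all genes tested rose. ADARB2, a gene of superficial interneurons, stood at 40.7, 54.2 and 90.4 CPM against 14.1, 26 and 39.6 CPM (1.11 ± 0.20). All 8 fibroblast-rich libraries lay above all fibroblast-poor ones. GAD1 (0.53 ± 0.16) and GAD2 (0.24 ± 0.13), which make gamma-aminobutyric acid, did not pass. Of 14 tested genes of layer 1 and superficial neurons 1 rose, NDNF, at 10.5, 19.0 and 62.0 CPM against 3.47, 5.44 and 13.4 CPM (1.91 ± 0.37, adjusted p = 0.012), while RELN differed by 0.03 ± 0.31.

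Of 15 tested genes of deep-layer neurons 0 rose and 0 fell, with a median of -0.73. At an unadjusted p under 0.05, 8 of the 15 were lower, against 7.18% of all genes tested. FEZF2, a factor of subcortical projection neurons, stood at 1.35, 4.35 and 13.7 CPM against 9.01, 15.8 and 19.6 CPM (-1.31 ± 0.37, adjusted p = 0.086), SEMA3E differed by -1.79 ± 0.44 (adjusted p = 0.055) and BCL11B by -0.35 ± 0.19. The 15 tested excitatory genes had a median of -0.07 with 0 called, among them the vesicular glutamate transporters SLC17A7 (-0.39 ± 0.15) and SLC17A6 (1.32 ± 0.54) and the factor NEUROD6 (-1.04 ± 0.33). Of 19 tested astrocyte genes 0 passed, with a median of 0.16. The water channel gene AQP4 (-0.22 ± 0.27) and the filament gene GFAP (-0.79 ± 0.39) were among them. Of 17 tested genes of astrocytes at the pial surface 2 rose, VIM and MYOC, and 0 fell, with a median of -0.01. VIM is also in the fibroblast identity list. A lower fitted level was found in 9 of the 17, among them SERPINA3 (-1.79), TNC (-1.20) and CRYAB (-1.18). These were named after their values were seen and did not pass. MYOC, a secreted glycoprotein, stood at 0.380, 8.71 and 38.3 CPM against 0, 0.596 and 1.86 CPM (4.54 ± 0.69, adjusted p = 0.0015).

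The 12 lower genes of smallest p came from several functions. PAPPA2, a protease that cleaves binding proteins of insulin-like growth factors, stood at 0.241, 1.13 and 1.86 CPM against 1.19, 4.19 and 8.39 CPM (-2.12 ± 0.41, adjusted p = 0.012), with 6 of 8 fibroblast-rich libraries below every fibroblast-poor one. TMEM178A, a membrane protein, stood at 29.1, 39.0 and 44.9 CPM against 46.3, 55.0 and 78.1 CPM (-0.59 ± 0.12, adjusted p = 0.020). EXOC6B, a subunit of the exocyst that tethers vesicles, stood at 75.4, 80.9 and 93.9 CPM against 99.3, 110.0 and 146 CPM (-0.46 ± 0.10, adjusted p = 0.025). TMEM178A and EXOC6B had no overlap between the groups.

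The actin regulator INF2 (-0.77 ± 0.16), the kinase CDK18 (-1.28 ± 0.27), the tubulin-binding protein TPPP of oligodendrocytes (-0.62 ± 0.13), the metalloprotease ADAMTS16 (-2.20 ± 0.47), the protocadherin PCDH10 (-0.48 ± 0.10), MUM1L1 (-1.51 ± 0.33), the forkhead factor FOXO4 (-0.58 ± 0.13), SH3TC2 (-1.75 ± 0.38) and the intermediate filament gene NES (-1.24 ± 0.27) also fell. In each of these 9 genes 5 to 7 of 8 fibroblast-rich libraries lay below every fibroblast-poor one. PAPPA2 and TMEM178A kept the call in all 16 fits that left out 1 library, whereas the other 10 lost it in 2 to 10 of them. With the myelin level as a covariate none of the 12 passed, but of the 125 higher and 35 lower genes only 8 and 0 kept the call there. In that fit SH3TC2 differed by -0.44, CDK18 by -0.70, NES by -0.73, PCDH10 by -0.28, MUM1L1 by -0.99 and PAPPA2 by -1.37. The differences of INF2 (-0.67), FOXO4 (-0.45), TPPP (-0.49), TMEM178A (-0.46), EXOC6B (-0.31) and ADAMTS16 (-1.56) changed less in proportion. The part of myelin in these 12 genes was not tested. The 12 higher genes of smallest p kept the call in every fit that left out 1 library and tested them. Of all 78 genes named here that passed, 48 kept the call in every such fit and 16 lost it in more than 8. Without rich 1 and rich 2, 35 of the 78 lost the call. Among them were COL12A1, FBLN5, LAMA4, EMX2, IGFBP6, ADARB2, NDNF, MYH11, TPM1, CD248, PTN and FGF10.

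The 17 middle libraries had no part in the contrast. The slope of each gene on the score was tested within them next, over scores from 1.87 to 3.31. The predictor was the same score that formed the groups. Genes that the same cells transcribe move with it by the choice of the score genes, here as between the groups. The slopes therefore show only whether genes also varied with the score in other libraries, and are no separate support for the score. Of 16004 genes tested there, 15 (0.0937%) sloped upward with the score and 0 downward at an adjusted p under 0.05, and without adjustment 461 (2.88%) and 431 (2.69%) were under 0.05. Of the 125 genes higher in the fibroblast-rich group 116 could be tested in the middle libraries. Of these 113 sloped upward, 64 of them with an unadjusted p under 0.05, and 12 were among the 15. Their median slope was 0.56 log2 units per unit of score, against -0.0088 over all genes tested, of which 47.5% had a positive slope. Of the 35 lower genes 30 sloped downward, 5 of them with an unadjusted p under 0.05 and 0 at the adjusted threshold, with a median of -0.29. PAPPA2 (0.11 ± 0.44), EXOC6B (0.02 ± 0.10) and NES (0.03 ± 0.36) were among those that did not slope downward.

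OGN had the smallest p of all in the middle libraries, with a slope of 2.01 ± 0.21 (SE, n = 17; adjusted p = 0.0001) and 4.96 to 64.3 CPM. DCN had 1.22 ± 0.16, OMD 1.71 ± 0.28, SLC6A20 2.85 ± 0.48, SLC13A4 2.22 ± 0.38, SLC22A6 2.57 ± 0.47, APOD 1.05 ± 0.19, ABCA9 0.86 ± 0.16 and VIM 0.67 ± 0.12. LOC103883270 (2.20 ± 0.29) and LOC101014578 (1.40 ± 0.24), also passed and were named after their values were seen, as were OLFML3 (1.05 ± 0.20), OAF, PRELP and SDS, the last 3 of which did not pass between the groups. ZIC2 (0.71 ± 0.15), BMP6 (1.03 ± 0.24), COLEC12 (0.98 ± 0.22), KDR (0.60 ± 0.22) and DSP (1.44 ± 0.54) had positive slopes that did not pass. MBP had a slope of -0.96 ± 0.53 and MOBP one of -1.28 ± 0.64, neither of which passed. Without the 4 middle libraries of highest score, 0 genes passed in either direction.

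**Figure D5:**
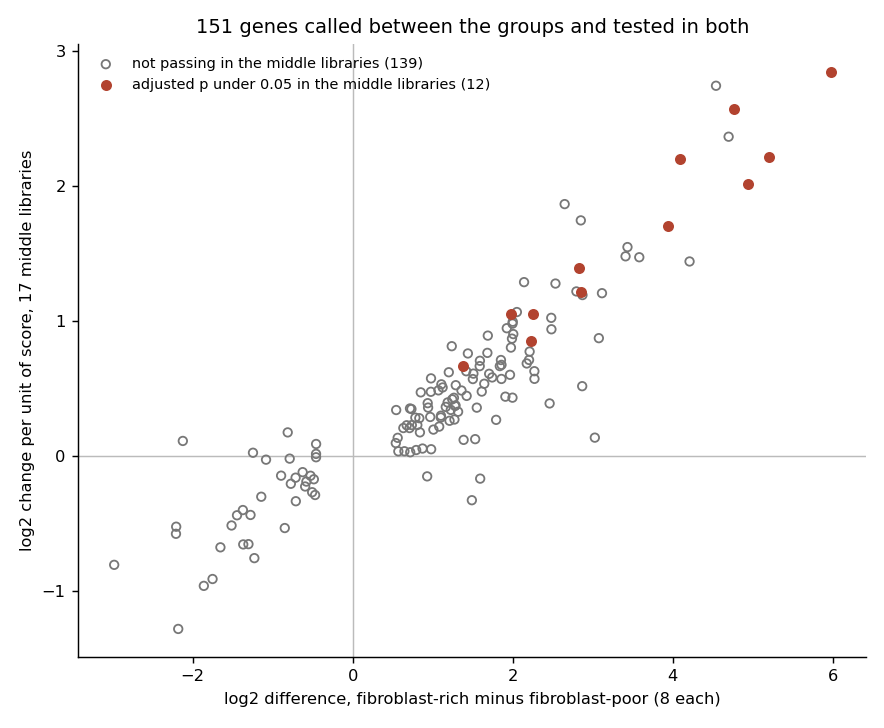
Slope on the score in the 17 middle libraries (log2 units per unit of score) against the log2 difference between the groups, for the 151 genes called between the groups that could be tested in both, with 1 point per gene and 12 filled points at an adjusted p under 0.05 in the middle libraries. Of the points at positive differences 113 of 116 lie above 0, and of those at negative differences 30 of 35 lie below 0.

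Because the deposited values are per transcript, the share of each gene's counts held by each of its transcripts was compared between the groups as well. Of 7296 genes tested, 0 passed (edgeR's test of differential usage, Simes p per gene, Benjamini-Hochberg adjustment), and 170 (2.33%) had an unadjusted p under 0.05. Of 28367 single transcripts 2 (0.00705%) passed when adjusted over transcripts, PTPRD variant X38 (-1.21 on the log2 scale relative to the gene, adjusted p = 0.037) and NCAM1 variant X21 (-0.80, adjusted p = 0.037), with 3 at a filter of 1 CPM in 8 libraries and 0 without the suffix R libraries. The smallest p-values belonged to the neural cell adhesion gene NCAM1 (20 transcripts, adjusted p = 0.221), the receptor phosphatase gene PTPRD (37 transcripts, adjusted p = 0.221) and the RNA helicase gene DDX17 (4 transcripts, adjusted p = 0.506).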

How the data were processed

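Total RNA of frozen cortex, 1 library per animal, was made into stranded libraries depleted of ribosomal RNA, per the labels' protocols. Per the submitters' processing notes bcl2fastq, STAR 2.5.3 and Partek were used, with no step named, and no source used here names a genome build, so no coordinates are printed. The authors deposited estimated counts for 89424 transcripts and a normalized signal, each library's estimated counts multiplied by 1 factor (relative deviation at most 9.34e-06 over values of 10 or more in the 33 libraries used). Of the values above 0 in the estimated counts 27.1% are whole within 0.001. Columns were assigned by title, and 0 belonged to no listed sample. Of 35741 GeneIDs, 31305 were found in the reference table.

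Counts were summed per GeneID, rounded, scaled by TMM, kept by filterByExpr (minimum count 10, minimum total 15) and tested with edgeR 4.0.16 in R 4.3.3 (robust quasi-likelihood F test). CPM values carry the TMM scaling, except those of the score genes and of the library left out. The SE is the absolute log2 difference divided by the square root of F. The 24 rows without a gene held 0.435 to 1.48% of counts and were left out of the tests. The score genes entered library sizes but neither the tests nor the adjustment. Where symbols repeat (377 extra copies) the copy with most counts carries the symbol. Low counts limit precision: a library of 2500762 counts gives 1 count to 0.400 CPM.

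The members, the 35 lists of 674 genes (654 found) and the tests were chosen with earlier results of these data known. Genes named are the 12 of smallest p per direction with a symbol, and for each list described up to 5 members of smallest p and its first 2 members, where tested. Some genes this rule names are not reported here. Alternatives were other scalings, filters, group sizes and scores, covariates (age, log2 total, suffix R, myelin level), DESeq2 1.42.0, limma 3.58.1 (voom, or log2 of the normalized signal with pseudocounts of 1 and 0.1), and each library left out. Leaving out rich 1 and rich 2, other tools without the suffix R libraries, and leaving out 4 middle libraries were added after seeing the data. The steps were tested on simulated data.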

Additional observations from a re-analysis of the deposited data

Results flagged for a closer look

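For 120 named genes, the 4 score genes and 4 library measures, the gap between the highest or lowest library of a group of 8 and its nearest neighbour was set against the group's range (Dixon's criterion at the 95% level). Of 256 such groups 33 passed, where chance alone gives about 1 in 20 when values are normal, and CPM values are skewed. They concern few libraries.

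Rich 1, the library of highest score, stood above the other 7 fibroblast-rich libraries in ECM2 (31.6 CPM), FBN1 (53.0 CPM), ALDH1A2 (30.4 CPM), IGF2 (12.2 CPM) and C7 (94.3 CPM, next value 18.7 CPM), in PECAM1 (51.9 CPM), HBB (111.9 CPM, next value 35.3 CPM) and HBA1 (112.0 CPM), and in the neuronal genes NDNF (62.0 CPM), RELN (479.7 CPM) and ADARB2 (90.4 CPM). Rich 2 stood above the others in SLC22A8 (13 CPM), SLC22A6 (47.9 CPM), CPXM1 (10.03 CPM), SERPIND1 (45.7 CPM) and PTGDS (1492 CPM). Rich 5 had the largest total, 28495030 estimated counts, against 9586301 in the next library.

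Poor 5, a library with the suffix R, stood above the other 7 fibroblast-poor libraries in 10 genes: INF2 (167.4 CPM), COL6A1 (7.53 CPM), COL5A1 (39.7 CPM), FN1 (190.8 CPM), PDGFRB (37.3 CPM), TAGLN (19.8 CPM), CLDN5 (21.8 CPM), CD248 (2.45 CPM), CD163 (6.18 CPM) and SLC17A7 (1033 CPM). Poor 1 stood above the others in SLC6A20 (1.19 CPM) and CPXM1 (0.477 CPM), poor 4 in RSPO2 (39.6 CPM) and poor 6 in SFRP1 (436.7 CPM, next value 153.6 CPM). Poor 8 stood below the others in DCN (7.22 CPM) and in the score itself (0.706).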

How the results depend on the processing

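Against 125 genes higher and 35 lower, other settings gave 793 and 587 for the slope on the score over all 33 libraries, 214 and 210 for the score without COL1A1 or without COL1A2, 330 and 275 with DESeq2, 79 and 20 with limma-voom, 77 and 6 with the log2 library total as a covariate, 69 and 4 with the suffix R as a covariate, 0 and 0 without the suffix R libraries (0 and 0 also with limma-voom, but 115 and 23 with DESeq2), 11 and 0 with the myelin level as a covariate, and 61 and 2 without rich 1 and rich 2. The number lower was also 21 without a filter and for 16 against 16 libraries, 7 for 6 against 6, 22 with age as a covariate, and 21 or 15 with limma on the normalized signal at a pseudocount of 1 or 0.1, where the number higher stayed within 1.5 times 125. RLE or upper quartile scaling, a filter of 1 CPM in 8 libraries, and the score without COL3A1 or LUM left both counts within 1.5 times. In every one of these settings each of the 125 and 35 genes that was tested kept its sign. The settings reuse libraries that chose these genes, so the kept signs are no separate support. Leaving out each library in turn gave 74 to 234 genes higher and 7 to 240 lower. The number higher moved by over 1.5 times without rich 1 (74), rich 2 (77) and poor 4 (234). The number lower moved by over 1.5 times without rich 1 (7), rich 2 (8), poor 2 (9), poor 6 and rich 3 (11 each), rich 4 (13), rich 7 (14), poor 5 (16), poor 3 (17), rich 6 (56), poor 1 (86) and poor 4 (240). In the 17 middle libraries 5 genes passed with the myelin level as a covariate and 0 without the 4 libraries of highest score, against 15, and RLE scaling also gave 15. Transcript usage gave 0 genes in each of 3 settings, with 2, 3 and 0 single transcripts. The cause of these changes was not tested.

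Of 120 named genes followed under each setting 78 had passed, and 0 of these changed sign, which the reuse of the same libraries favours. Sign changes were limited to those that had not passed: COL5A2 (-0.086 without rich 1 and rich 2), P4HA1 (0.0042 for the slope over 33 libraries), P4HA2 (0.092 for 16 against 16), BMP2 (0.12, 0.13 and 0.13 without the suffix R libraries by edgeR, DESeq2 and limma-voom), and, with the myelin level as a covariate, SFRP1 (0.43), CX3CR1 (0.41), AQP4 (0.25) and GFAP (0.32). AQP4 was also 0.12 for 6 against 6, and P2RY12 was -0.24 for 16 against 16, -0.052 for the score without LUM, -0.017 with age as a covariate, -0.0903, -0.081 and -0.24 without the suffix R libraries by edgeR, DESeq2 and limma-voom, and -0.20 without rich 1 and rich 2. RELN was -0.0501 for 16 against 16, -0.017 for the score without LUM, -0.057 with the library total and -0.065 with the suffix R as a covariate, -0.066, -0.064 and -0.11 without the suffix R libraries by the 3 tools, -0.27 without rich 1 and rich 2, and -0.0055 with limma-voom. Leaving out each library in turn gave -0.12 to 0.29 for P2RY12, -0.26 to 0.28 for RELN and -0.37 to 0.0075 for AQP4. No paired analysis was possible because each animal gave 1 library. Depth limits genes such as SLC22A8, which had 6 counts over the 8 fibroblast-poor libraries.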

Other observations

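ND2, a mitochondrially encoded subunit of complex I, ranged from 3.23 to 6784 CPM over the 33 libraries. In 10 libraries it was 67.8 CPM or more, among them rich 2 with 473.9 CPM, rich 5 with 1687 CPM and 8 middle libraries, and in the other 23 it was at most 10.9 CPM. ND1, which encodes another subunit of the complex, ranged from 192.0 to 7126 CPM, with 415.2 CPM in rich 2 and 3052 CPM in rich 5. In the fibroblast-poor libraries ND2 lay between 6.91 and 10.9 CPM.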
